A study of Drosophila melanogaster with 2 samples.

Results

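Dense domains are stretches of the fly genome in which binding summits of the tagged protein hng2 lay close together. They were drawn from the relaxed list of peaks called on both replicates pooled, on genome build dm6. Summits on the same chromosome arm were joined into a chain when neighbours lay 1000 bp or less apart, and chains of 5 or more summits were kept. This gave 272 domains of 21589 chains, holding 1571 of 30000 summits (5.24%) and covering 775416 bp, 0.564% of the 137547960 bases of the main arms. The domains were chosen by the positions of the pooled summits, so their number, length and signals are given as a description with no test.

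The data are chromatin immunoprecipitation sequencing (ChIP-seq) of whole Drosophila melanogaster embryos of both sexes, aged 0 to 14 h, from a transgenic line with GFP fused to the C-terminus of CG8359, the gene now named hng2. There was 1 group with 2 biological replicates, numbered 2 and 3, both from that line, and no untagged embryos were among the samples. Each replicate's embryos were pooled, males with females. The antibody entry names CG8359 and the sample description names an antibody against GFP. Chromatin was sonicated to fragments of 200 to 800 bp. The embryos were not separated into tissues or narrow stages, so summits that lie side by side in a domain need not be bound in the same cells. Read counts are not part of these lists, and library depth is unknown.

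The gene hng2 (hinge2) encodes a member of the MADF and BESS family, in which the MADF domain binds DNA and the BESS domain mediates contacts between proteins. The family is known in the fly for its part in the formation of the wing hinge. Genes that are regulated in many tissues of the embryo often hold several separate enhancers in their introns and flanks.

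The sequences under the strongest summit of 6 domains with very strong peaks are shown first, to let the short core counted further on be read in place. They stand at ranks 2, 3, 4, 5, 6 and 8 of the domains by strongest peak. The windows at ranks 1 and 7, at Spn and CG15322, touch UTR sequence and are not printed. They hold 2 cores with none 11 bp apart, and 6 cores with 1 pair 11 bp apart. All printed windows are 201 bp centred on a summit, on the plus strand of dm6, with every AANCGC core, or its reverse complement GCGNTT, in capitals and N standing for any base. The core and its step were picked from these sequences. The windows are chrX:19175272-19175472 for the domain over CG7556, chr2L:7140189-7140389 for Pvf3, chrX:19162615-19162815 for RhoGAP18B, chrX:18942080-18942280 for CG43759, chr3L:20984909-20985109 for the domain near CG12984 and chr2L:7542185-7542385 for RapGAP1. The last sequence, chr2L:7143919-7144119, is the weakest summit of the Pvf3 domain, for contrast.
CG7556: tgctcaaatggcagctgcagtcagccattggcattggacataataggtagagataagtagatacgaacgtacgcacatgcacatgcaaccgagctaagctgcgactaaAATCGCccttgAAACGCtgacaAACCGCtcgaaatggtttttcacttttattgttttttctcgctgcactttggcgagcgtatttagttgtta
Pvf3: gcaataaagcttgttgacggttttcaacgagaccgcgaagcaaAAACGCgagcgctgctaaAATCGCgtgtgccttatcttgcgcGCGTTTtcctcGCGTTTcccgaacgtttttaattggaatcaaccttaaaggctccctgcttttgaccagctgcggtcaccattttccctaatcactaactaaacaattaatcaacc
RhoGAP18B: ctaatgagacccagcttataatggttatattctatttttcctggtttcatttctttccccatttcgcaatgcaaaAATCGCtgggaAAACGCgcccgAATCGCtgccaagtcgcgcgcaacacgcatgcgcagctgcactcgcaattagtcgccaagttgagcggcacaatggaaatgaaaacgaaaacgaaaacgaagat
CG43759: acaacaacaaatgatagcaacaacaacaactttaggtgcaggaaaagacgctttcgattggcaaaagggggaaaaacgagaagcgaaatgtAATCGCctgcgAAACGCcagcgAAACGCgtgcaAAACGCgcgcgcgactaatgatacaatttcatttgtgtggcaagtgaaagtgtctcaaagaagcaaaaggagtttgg
near CG12984: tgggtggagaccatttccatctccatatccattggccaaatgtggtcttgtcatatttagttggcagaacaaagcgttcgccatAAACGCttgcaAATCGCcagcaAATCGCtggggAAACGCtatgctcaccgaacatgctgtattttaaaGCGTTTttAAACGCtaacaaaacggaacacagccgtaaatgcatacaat
RapGAP1: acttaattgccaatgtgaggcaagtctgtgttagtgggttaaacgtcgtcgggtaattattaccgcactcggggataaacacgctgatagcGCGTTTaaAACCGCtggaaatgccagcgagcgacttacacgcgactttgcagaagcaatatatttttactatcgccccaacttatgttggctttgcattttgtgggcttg
Pvf3, weak summit: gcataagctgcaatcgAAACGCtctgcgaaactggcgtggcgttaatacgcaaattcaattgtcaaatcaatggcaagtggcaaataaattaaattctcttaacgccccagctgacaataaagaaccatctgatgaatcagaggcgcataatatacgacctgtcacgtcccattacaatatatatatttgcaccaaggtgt

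In most of these windows the cores stood in rows with a fixed step. CG7556 and RhoGAP18B each had 3 cores on the plus strand, each starting 11 bp after the one before. CG43759 had 4 at steps of 11 bp, and the window near CG12984 had 4 at that step, a further core 43 bp on and 1 on the minus strand. The Pvf3 window held 2 on each strand, with a step of 18 bp on the plus strand and of 11 bp on the minus strand. RapGAP1 broke the pattern at its strongest summit, with 1 core on each strand, and the weak summit of Pvf3 had 1 core in all. The second peak of RapGAP1 lies outside the printed window.

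The domains were mostly small and their number fell steeply with size. Exactly 5 summits were found in 160 of them (58.8%, 95% CI 52.7 to 64.7), 6 in 61, 7 in 28 and 8 or more in 23. The largest held 14. Outside the rule, 15985 summits stood alone, 3912 chains held 2 summits, 1060 held 3 and 360 held 4. The span from the first to the last summit ran from 986 to 7864 bp with a median of 2660 bp, and the median domain had 2.06 summits per kb. The median distance between neighbouring summits inside domains was 656 bp, against 630 bp in chains of 2 to 4. Distances under 250 bp were 20.6% of those in domains and 27.3% of those in chains of 2 to 4.

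**Figure D1:**
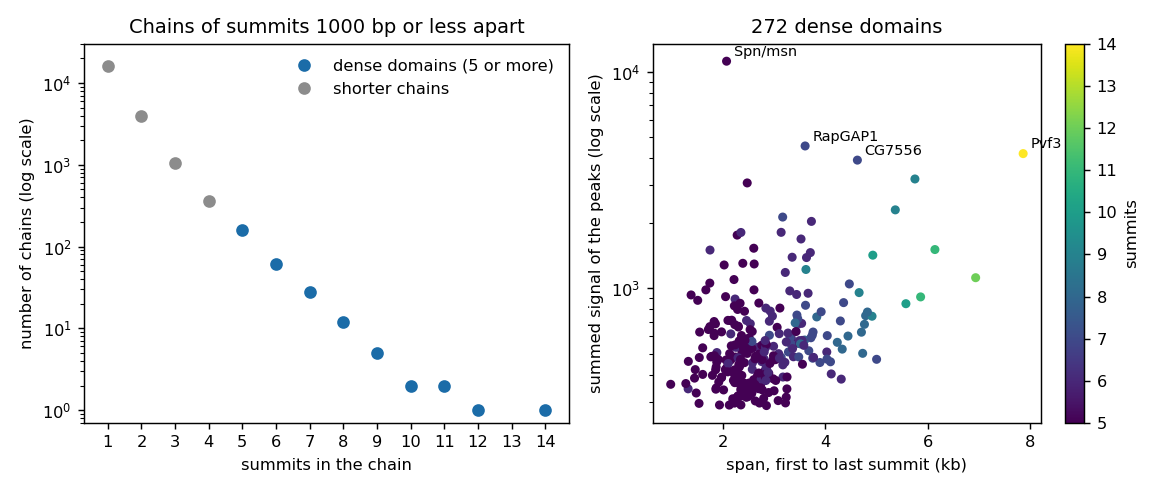
Left, number of chains (log scale) by the number of summits in the chain, with dense domains in blue and shorter chains in grey. Right, summed signal of the peaks (log scale) against span in kb for each of the 272 domains, coloured by number of summits; Pvf3 is both longest and richest in summits, and the domain at Spn and msn has the highest sum over a short span.

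Domains just inside the rule resembled chains just outside it in all but length and sum. Chains of 5 summits had a median span of 2350.5 bp and a median summed signal of 445, and chains of 4 had 1779.5 bp and 344. The median strongest peak was 134 in chains of 5 and 128 in chains of 4, and 47.5% and 45.6% of them held an optimal peak. The distance limit also cut through a continuum. The largest step inside a domain exceeded 900 bp in 122 domains, and in 52 the nearest outside summit lay within 100 bp of the limit. The domains are thus the dense end of a range of chains, with no gap in size that sets them apart.

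Peaks in domains were slightly stronger than others, and most domains were built of weak peaks. The signal is the peak caller's value for each peak against its control, on the scale of the pooled list. The median was 73.8 over domain summits and 65.3 over all other summits, with 69.5 in chains of 2 to 4 and 62.5 for single summits. The sum over a domain was between 288 and 11169, 501 in the median domain, and in all the domains held 6.18% of the signal of the list. Peaks were 400 bp wide in 97.6% of domain summits, so neighbours less than that apart overlap and the sum counts shared sequence more than once.

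Within a domain the signals were uneven in a few cases and flat in most. The strongest peak had a median signal of 136, the second strongest of 98.7 and the weakest of 53.3, close to the lowest signal of the list, 48.4. The strongest made up 28.8% of the domain's sum in the median domain, between 14.6% and 97.4% in all, and over 50% in 39 domains. It lay at an end of the chain in 107 domains (39.3%, 95% CI 33.5 to 45.4). Most domains had exactly 5 summits, so the ends are a large part of each chain, and nothing is read from this share.

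Most of the strongest peaks of the whole list lay outside domains, as did most summits, since domains hold 5.24% of all summits. Of the 10 strongest peaks, 1 was in a domain and 9 stood alone. Of the 100 strongest, 10 were in domains, 50 in chains of 2 to 4 and 40 stood alone. The highest peak of all, in the gene of the Dpp receptor thickveins (tkv) with a signal of 22810, was a single summit, 1201 bp from its nearest neighbour. That neighbour opens one of the domains in tkv, so the strongest site lay just past the limit of 1000 bp.

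The richest domain covered Pvf3 (FBgn0085407), which encodes a ligand of the PDGF and VEGF family, at 2L, 7136845 to 7144708. Along the arm its 14 pooled signals were 128, 91.2, 124, 55.1, 75.3, 2934, 276, 71.9, 112, 73.7, 72.9, 64.4, 50.6 and 54.1. A single intronic summit stood far above the others, the next being 276. It lay 2015 bp from the nearest transcription start site (TSS) of any gene and 6220 bp from the nearest of a protein-coding gene. The replicates gave 14 summits in replicate 2 and 10 in replicate 3, with strongest signals of 1701 and 1266 at the same place. Chained by the same rule, replicate 2's own list had a domain there and replicate 3's own list had none. Signals are not scaled between lists, so only their order within a list can be compared.

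Some other domains with many summits, those in shn and Exn among them, had no dominant peak. The domain in shn, which encodes a zinc finger cofactor of the Smad proteins in Dpp signalling, spanned 6142 bp of 2R (11192008 to 11198149). Its 11 signals along the arm were 49.7, 52.9, 59.5, 62.9, 382, 136, 241, 67.9, 232, 149.6 and 76.0. The 4 highest were spread over the part with the higher coordinates, 10 of the 11 summits were intronic, and 4 were in the authors' optimal list. In the replicates, however, the strongest summit of replicate 3 was not the pooled one. Replicate 2 had 7 summits with a maximum of 322, and replicate 3 had 10 with a maximum of 90.5, whose strongest summit lay 2275 bp from the pooled one. Chained by the same rule, replicate 3's own list had a domain there and replicate 2's own list had none.

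Exn, which encodes a guanine nucleotide exchange factor of the ephexin type, had the flattest profile among the richest domains. Its 11 summits at 3L, 16983668 to 16989530, had pooled signals between 51.2 and 133, and 0 of them were optimal peaks. Both replicates held nearly as many summits there, 11 in replicate 2 and 10 in replicate 3. The domain was thus dense in each replicate although no single peak in it reached the optimal list.

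The domain richest in coding-exon summits among those named here ran across Su(var)205, CG8419 and SLC5A11, at 2L, 8203096 to 8210032. Su(var)205 encodes heterochromatin protein HP1a, but only 1 of the summits lay in that gene. Its signal of 49.2 was close to the lowest of the list. CG8419 held 6 of the summits and SLC5A11 held 4. The domain had 12 summits, of which 7 were in coding exons, and a strongest signal of 381 at a promoter, 169 bp from a TSS of SLC5A11. Replicate 2 had 10 summits and replicate 3 had 11.

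The other domains among the 10 with most summits were sm (10 summits, 6 at promoters), a stretch near fng (10, 3 at promoters) and loco, Rh5, CG43759 and CG15322 with 9 each. A domain over tun and Poxn on 2R also had 9 summits and had the lowest sum of the 5 of that size, 743. The gene sm encodes an RNA-binding protein, fng a glycosyltransferase that modifies Notch, loco a regulator of G-protein signalling and Rh5 a rhodopsin. The summed signals of the 6 ran from 849 near fng to 3195 in CG43759. At fng the replicates were uneven, with 9 summits in replicate 2 and 5 in replicate 3. Chained by the same rule, only replicate 3's own list had a domain at sm, and only replicate 2's had one at Rh5.

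**Figure D2:**
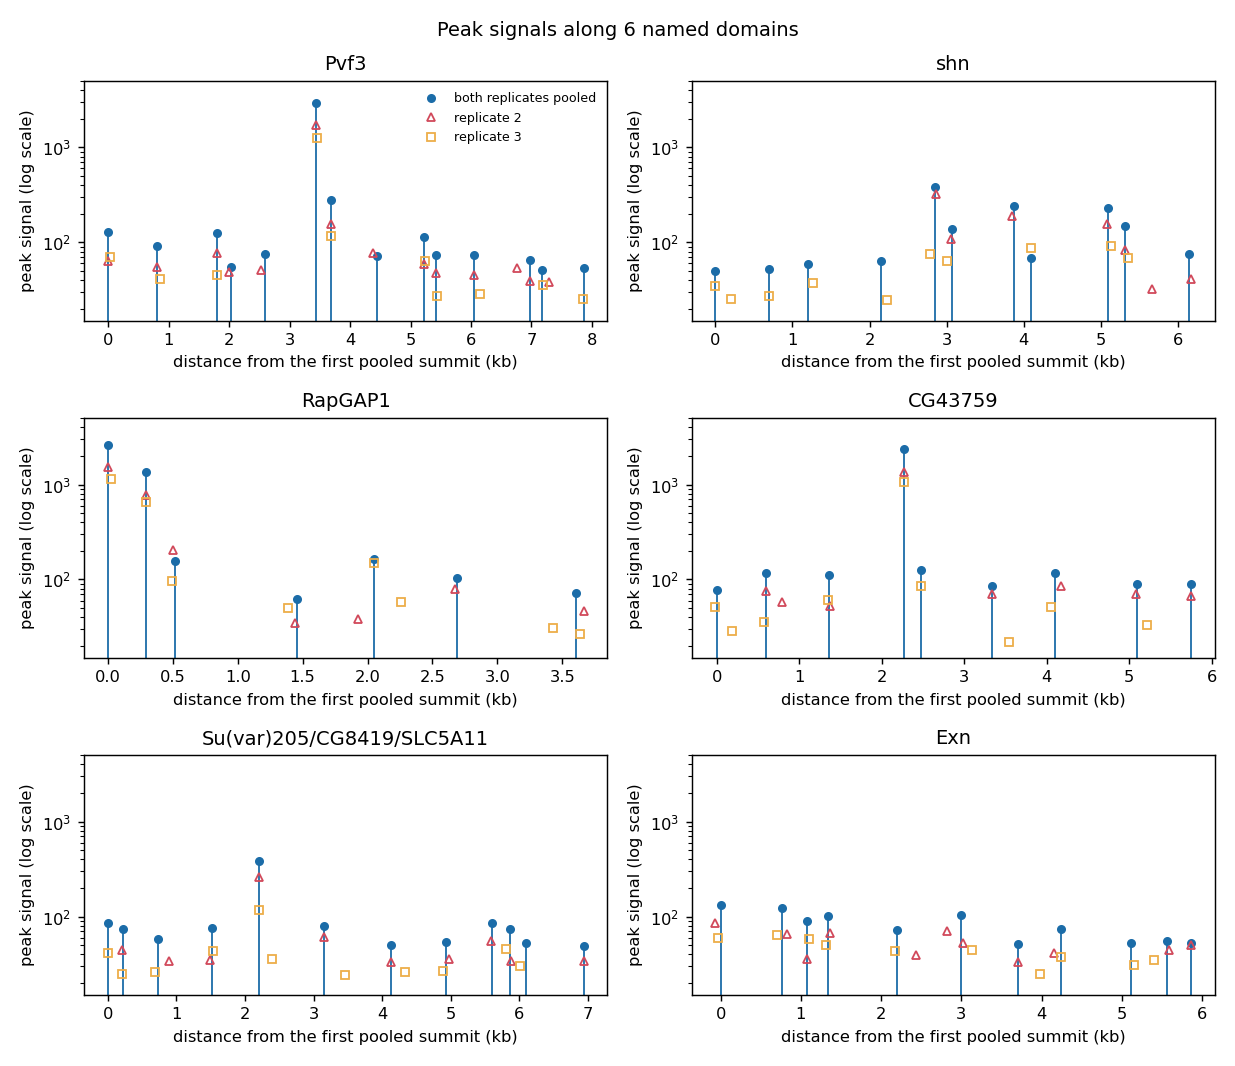
Peak signal (log scale) against distance in kb from the first pooled summit in 6 named domains; blue points with stems are pooled summits, triangles replicate 2 and squares replicate 3, each on its own list's scale. Pvf3, RapGAP1 and CG43759 have a peak over 1000, shn has several of similar height, and Exn is flat.

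Most of the domains with the highest summed signal had the bulk of it in 1 peak. The sum was highest at the 5 summits from the start of Spn into msn (3L, 2554298 to 2556373), 11169, of which 10883 came from a single peak 6 bp from a TSS of Spn. Spn encodes spinophilin, a regulatory subunit of protein phosphatase 1, and msn encodes a Ste20 kinase of the JNK pathway. The other 4 summits were in 3' UTR sequence with signals from 49.3 to 92.4. That peak was the strongest in the stretch in both replicates, with 5902 in replicate 2 and 5104 in replicate 3. Each replicate had 3 summits in the stretch.

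RapGAP1, which encodes a GTPase-activating protein for Rap1, was the exception with a pair of very strong peaks. Its domain (2L, 7542285 to 7545893) had pooled signals of 2621, 1358, 157, 61.7, 165, 103 and 72.4, and 4 of the 7 were optimal. Replicate 2 gave 1512 and replicate 3 gave 1135 at the strongest summit. The second strongest, 295 bp away, had 775 in replicate 2 and 656 in replicate 3. Both summits were intronic and 1847 bp or more from a TSS.

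The third highest sum was 4184, that of the Pvf3 domain on 2L described above. The next were those of CG7556, CG43759 and RhoGAP18B, all on the X, with 3904, 3195 and 3064. Each had 1 peak of 2382 or more and no other above 314. The other domains among the 10 with the highest sum or the 10 with the highest peak were CG15322, near CG12984, CG1677 with CBP, Tlk, CG1888 and CG8117, with sums from 1689 to 2301. At CG1888, Tlk and the CG1677 and CBP domain the strongest signals were 1066, 924 and 701 in replicate 2 and 296, 249.9 and 265 in replicate 3. At CG7556, CG43759 and RhoGAP18B they were 1734, 1356 and 1436 in replicate 2 and 1474, 1053 and 1313 in replicate 3.

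The very strong domains were spread unevenly over the arms. Of the 272 domains, 31 were on X (11.4%, 95% CI 7.88 to 15.8), where 14.9% of all relaxed summits lay. Yet 7 of the 13 domains with a peak over 1000 were on X and 0 of the 72 on 3R. The median strongest signal was 278 on X and 136 over all domains, and 23 of the 31 X domains (74.2%) held an optimal peak, against 48.9% of all domains. Outside domains, 21 of 133 peaks over 1000 were on X and 39 on 3R. The limit of 1000 was chosen after the values were seen. The other arms held 55 domains on 2L, 57 each on 2R and 3L and 72 on 3R. Arm 4, with 146 relaxed summits, held 0 domains, which allows a share of up to 1.10%, and the Y had no summits.

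Domain summits were in the optimal list somewhat more often than others. The optimal list is the authors' set of peaks passing the irreproducible discovery rate (IDR) procedure, and it holds 10.6% of the relaxed pooled summits. In domains 212 of 1571 summits were optimal (13.5%, 95% CI 11.8 to 15.3), against 10.4% of all other summits, 13.0% of those in chains of 2 to 4 and 8.36% of single summits. Summits in domains and in chains of 2 to 4 thus did not differ beyond counting error. At least 1 optimal peak was held by 133 domains (48.9%, 95% CI 42.8 to 55.0), where 13.1% of all chains hold one; a domain has more summits that could qualify. There were 56 domains with 2 or more and 0 with 5 or more, so that no domain was dense in optimal peaks alone.

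The replicates differed in where their own summits were dense. Replicate 2's own relaxed list, cut by the same rule, gave 170 domains and replicate 3's gave 383, 276.5 ± 151 (SD, n = 2). Of the pooled domains, 78 (28.7%) overlapped a domain of replicate 2, 106 (39.0%) a domain of replicate 3, 31 (11.4%) both and 119 (43.8%) neither. Conversely 77 of replicate 2's 170 domains (45.3%) and 105 of replicate 3's 383 (27.4%) overlapped a pooled one. Most pooled domains were thus not dense by the same rule in both replicates.

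A larger share of summits than of domains had a counterpart in both replicates. Of domain summits, 65.5% (95% CI 63.1 to 67.8) had a replicate 2 summit within 100 bp, where 69.2% of all relaxed pooled summits had one. For replicate 3 it was 64.2% (61.8 to 66.6), where the whole list had 55.9%. Both replicates had such a summit at 38.4% (36.0 to 40.9) of domain summits, and at 35% of the whole list. Domain summits were thus matched less often than the rest in replicate 2, more often in replicate 3 and slightly more often in both. In chains of 2 to 4 the shares were 67.9%, 60.2% and 37.7% in the same order. The share matched in both replicates was thus about as high in those chains, within the interval for domains. Neither replicate had a summit within 100 bp at 8.72% of domain summits and 9.99% of the others.

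Counted by domain, 91 held 5 or more summits of replicate 2, 115 held 5 or more of replicate 3 and 55 held that many of both. The strongest summits of both replicates were within 100 bp of the pooled one in 102 domains (37.5%, 95% CI 31.7 to 43.5). In each of the 6 domains in CG42342 each replicate had between 3 and 6 summits.

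Introns held more of the domain summits than of the others, and coding exons fewer, in the pooled list and in each replicate's own. A promoter is the sequence within 500 bp of a TSS, of a protein-coding or a non-coding gene. In introns lay 47.9% (95% CI 45.4 to 50.4) of domain summits, 38.6% (38.1 to 39.2) of other summits and 39.1% of main-arm bases. At promoters lay 23.1% (21.0 to 25.3) of domain summits, against 26.5% of other summits, 13.3% of bases and 26.3% of the whole list. Coding exons held 5.86% of domain summits, 9.45% of other summits and 13.4% of bases. In chains of 2 to 4 the coding-exon share was 6.61%, and for single summits 11.7%. The low coding-exon share was thus not particular to domains. Summits of a domain are neighbours and share their surroundings, so these intervals, which cover counting error only, are too narrow and no test was made.

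By the same rule in the replicates' own lists, introns held 48.4% of domain summits and 39.9% of other summits in replicate 2, and 43.8% and 37.0% in replicate 3. Coding exons held 6.31% and 9.18% in replicate 2, and 6.64% and 10.9% in replicate 3. Promoters held 19.8% and 23.01% in replicate 2, and 29.0% and 29.8% in replicate 3. The domain means were 46.1% ± 3.23 for introns, 6.47% ± 0.238 for coding exons and 24.4% ± 6.48 for promoters (SD, n = 2). In each replicate's list and in the pooled list the promoter share was lower in domain summits than in the others, by unequal amounts.

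The promoter share did not change evenly with chain size. It was 23.1% in domains, 30.2% in chains of 2 to 4 and 23.6% for single summits. The intron share was 47.9%, 39.4% and 38.0% in the same order. The bases inside the domains had nearly the same make-up as the domain summits, 48.8% intron and 22.7% promoter.

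Whole domains differed in where they lay. In 66 domains (24.3%, 95% CI 19.3 to 29.8) all summits were intronic, in 7 all were at promoters, and 118 (43.4%) had no promoter summit. The strongest summit was intronic in 124 domains, at a promoter in 83 and intergenic in 51. A TSS lay inside 133 domains, and 143 lay wholly within a protein-coding gene. Of the 272, 225 overlapped a protein-coding gene, 173 of them exactly 1, and 47 overlapped none.

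**Figure D3:**
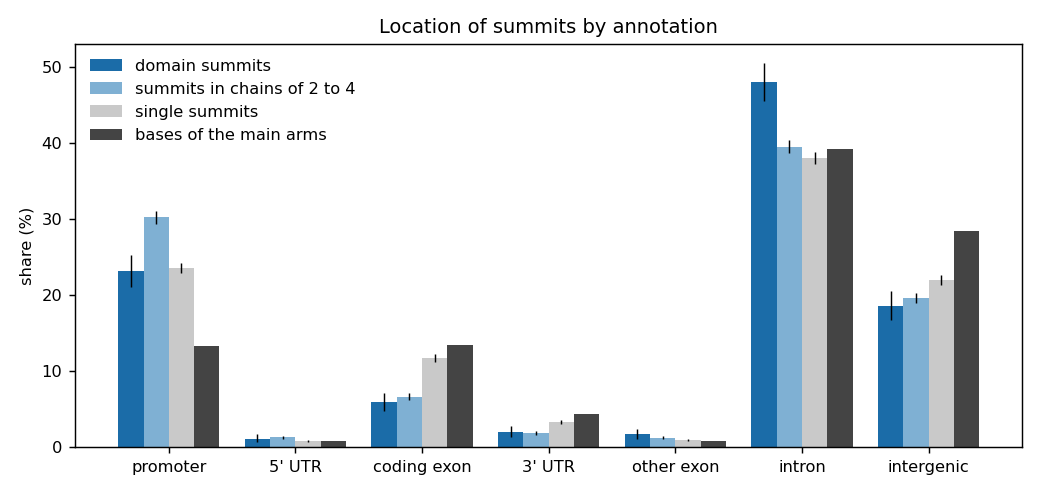
Share in percent of domain summits, of summits in chains of 2 to 4, of single summits and of main-arm bases in each of 7 annotation classes; error bars are 95% exact intervals for counting error. Domain summits stand above the other summits and the bases in introns (47.9%) and below the chains of 2 to 4 at promoters.

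The domains overlapped 236 of 13968 protein-coding genes, 1.69%, and these were long genes. Their median length was 13074.5 bp, against 2164.5 bp over all protein-coding genes. The share overlapped was 0.474% of genes up to 2000 bp long, 0.913% of those from 2000 to 5000 bp, 2.46% of those from 5000 to 10000 bp, 4.25% of those from 10000 to 20000 bp, 7.21% of those from 20000 to 50000 bp and 12.8% of longer ones. Shares for groups of genes are therefore given with the group's median gene length, and are to be read against both 1.69% and these shares by length.

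A few genes held several domains. In 31 genes there were 2 or more, and in 7 there were 3 or more, CG42342 and tkv with 6 each, Drak and rols with 4, and cv-c, RapGAP1 and mam with 3. Drak encodes a kinase related to death-associated protein kinases, rols an adaptor of myoblast fusion, cv-c a GTPase-activating protein and mam the Notch coactivator mastermind. These genes are between 52385 and 90031 bp long. Domain summits were 35 of the 74 relaxed summits in CG42342 (FBgn0259244) and 18 of the 80 in cv-c (FBgn0285955).

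**Figure D4:**
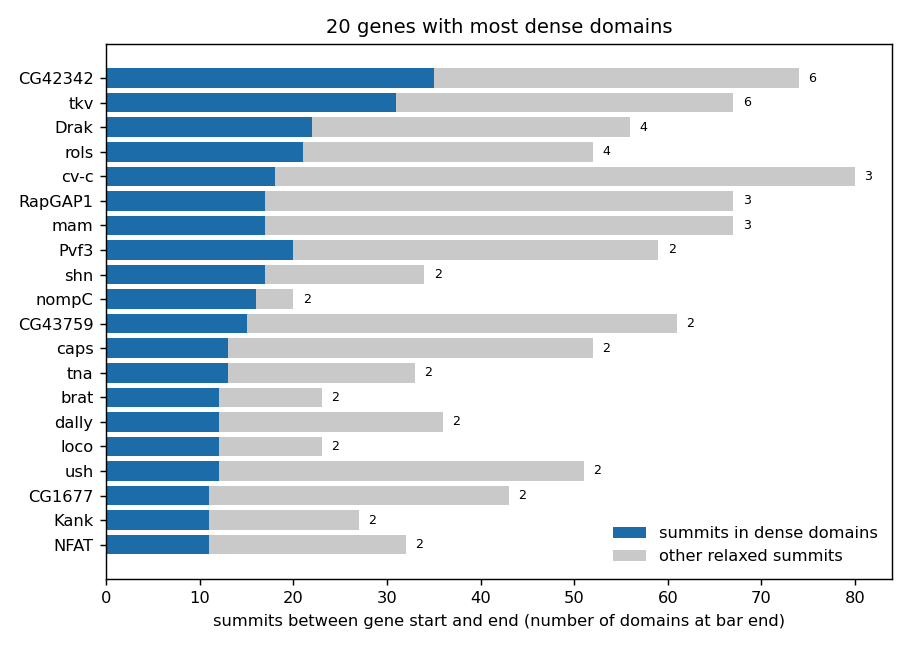
Number of relaxed pooled summits between the start and end of the 20 genes with most domains, split into summits in dense domains (blue) and other summits (grey), with the number of domains at the end of each bar. CG42342 has 35 domain summits of 74 and tkv 31 of 67, while in nompC 16 of 20 summits were in domains.

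Domains in the same gene formed long rows. With domains 20000 bp or less apart joined, 108 of the 272 fell into 41 groups, of which 16 held 3 or more. The group in CG42342 had 6 domains and 35 summits over 39456 bp of 3R, 16525958 to 16565413. All 6 had their strongest summit in an intron, with signals of 173 at most, and 1 of the 35 summits was optimal.

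The group in tkv (FBgn0003716) had 6 domains and 33 summits over 50548 bp of 2L, 5218635 to 5269182. The strongest signals of its domains were 133, 393, 132, 112, 226 and 87.3 along the arm, from the 3' side of tkv with TpnC25D to the 5' side with Cyp4ac2 and Cyp4ac3. All 6 were far below the single peak of 22810 that lay between the first and the second, and 6 of the 33 summits were optimal. In every domain of tkv each replicate had between 4 and 6 summits.

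Genes of the Dpp pathway, the fly BMP pathway, held domains in 6 of 19 members, tkv, shn, dally, sog, Dad and put. The pathway's receptors are tkv and put, the type I and the type II receptor. The put domain (3R, 14624112 to 14625911) had 5 summits, its strongest, 128, 4 bp from a TSS, and it also overlapped the histone gene His4r. In shn 17 of 34 summits were in 2 domains.

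The secreted and extracellular members were sog, a Chordin-like antagonist that binds BMP ligands, and dally, a glypican that binds Dpp. Each held 2 domains, with 9 of 32 summits in sog and 12 of 36 in dally. The smaller domain of sog (X, 15599868 to 15603424) lay mostly outside the gene, whose lowest coordinate is 15603283. The larger one in sog (X, 15626462 to 15631169) had 8 summits, with 8 in replicate 2 and 7 in replicate 3, its strongest 78 bp from a TSS. Dad, the inhibitory Smad that is itself induced by Dpp, held 1 intronic domain of 5 summits, with 4 summits in replicate 2 and 2 in replicate 3. The median length of the 19 genes was 13588 bp. The share of 31.6% in the list stands beside 1.69% of all genes, but 3 of the 6, tkv, shn and dally, are over 50000 bp long, where 12.8% of all genes were overlapped. Of the 4 genes of the list in that range 3 held domains. Of the 4 from 20000 to 50000 bp long only sog did, where 7.21% of all genes were overlapped. It was known from earlier results that tkv holds the highest peak, and the list was written with that known, so nothing is read from its share.

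GATA factor and blood cell genes had domains in 4 of 12, ush, srp, Pvr and pnr, with a median length of 16826 bp. That is 33.3%, beside 1.69% of all genes and 4.25% of genes from 10000 to 20000 bp long, and ush alone of the 4 is longer, at 64341 bp. The gene ush encodes the FOG cofactor of GATA factors, srp and pnr encode GATA factors, and Pvr encodes the receptor for ligands such as Pvf3. In ush 12 of 51 summits were in 2 domains with strongest signals of 411 and 269.9, and 4 of the 12 were optimal. In srp 6 of 20 were in 1 domain, with a strongest signal of 211. The domain in Pvr was the weakest of all by summed signal, 288. The domain at pnr had 1 summit inside the gene. Of 18 Dpp targets and genes of mesoderm or dorsoventral patterning 4 had domains, ush and pnr again and the FGF ligand genes pyr and ths with 5 summits each. That is 22.2% of a list with a median length of 18044 bp, beside the same 1.69% and 4.25%, and ush and ths are over 50000 bp long. Both lists were written with earlier results of these data known, so nothing is read from their shares.

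Other lists had 1 or 2 genes with domains each. The Notch list had 1 of 18 (mam, 17 of 67 summits), or 5.56% at a median length of 6119.5 bp. The list of tracheal and FGF genes had 1 of 9 (bnl, the Branchless FGF ligand, 11 of 42 summits in 2 domains), or 11.1% at 23783 bp. The FGF ligand genes pyr and ths, which also held domains, were placed in the list of Dpp targets and not here. The share of 11.1% depends on that placing. The wing hinge and appendage list had 1 of 20 (Dll, the homeobox gene of distal limbs, 10 of 19 summits in 2 domains), or 5% at 16497.5 bp. Muscle genes had 2 of 18 (rols and Lmpt), or 11.1% at 30649.5 bp, and ecdysone-response genes 2 of 14 (crol and Hr38), or 14.3% at 45299 bp. Axon guidance genes had 2 of 16 (sli and Sema1a), or 12.5% at 57981.5 bp, and ion channel genes 1 of 15 (Shab), or 6.67% at 49105 bp. Cell cycle genes had 2 of 21 (E2f1 and dap), or 9.52% at 3428 bp. These shares rest on 1 or 2 genes each, cover the listed genes only and are not set apart from the shares by length. Genes with domains were left out of some lists, such as nompC (2 domains) and nAChRalpha3 for ion channels, blow for muscle and beat-Ib for axon guidance. Each share thus depends on which genes were listed. At Hr38 only 1 summit of the domain lay inside the gene. For crol and dap, which encodes an inhibitor of cyclin E and Cdk2, all summits in the gene were in the domain, 7 and 5. At dap replicate 2 had 1 summit and replicate 3 had 4.

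No domain overlapped any of 8 Hox genes, although their median length was 30563 bp. The same held for 6 genes of the NK homeobox cluster, 25 segmentation genes, 11 of insulin signalling and growth, 20 of the Polycomb and Trithorax groups, 13 of insulator proteins, 15 of heat shock and chaperones and 8 of MADF and BESS proteins. Their median lengths were between 2347 and 8048 bp. With 25 genes or fewer in each list, a count of 0 cannot be told from the 1.69% of all genes. It covers the listed genes only and not every gene that could be placed in such a group. For example, kis, with 1 domain, and tna, with 2, could be placed in the Trithorax group and were not listed.

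The genes of the hinge family held no domains themselves. Within 2000 bp of hng2 (FBgn0037634, 3R, 8806322 to 8807581) lay 4 relaxed summits, the largest chain holding 3. The nearest domain, over CG9837 and aqz, was 5204 bp away with 7 summits. At hng3 there were 18 summits, in chains of at most 4, and at hng1 there was 1.

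Short motifs were about as common under domain summits as under the others. In windows of 201 bp, read on both strands, GAGAG was in 23.7% of domain windows and 23.6% of other windows, CAGCTG in 10.2% and 9.59%, CACACACA in 5.73% and 5.37%, AGATAAG in 3.06% and 2.79% and CAGGTAG in 1.40% and 1.17%. The longer GAGA repeat GAGAGAGA, which contains GAGAG, was in 2.61% and 1.82%. For TATAAA the shares were 21.5% and 22.8%, for AAAAAAAA 8.85% and 8.21%, for TATCGATA 0.828% and 1.05% and for CATCNCTA 1.46% and 1.67%. The median GC content was 42.3% in both. A match describes the letters in the window and not a bound site.

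The AANCGC core shown above was frequent at very strong peaks, in domains and outside them. Of the 13 domains with a peak over 1000, 9 (69.2%) had 3 or more cores at the strongest summit, a mean of 3.08. At the other 79 summits of the same domains 1 window had that many (1.27%), that of the second peak of RapGAP1, with a signal of 1358. Of all 14 domain peaks over 1000, 10 (71.4%) had 3 or more. At the strongest summits of the other 259 domains it was 0, and at their remaining 1220 summits 12 (0.984%). Peaks over 1000 outside domains had 3 or more cores in 75 of 133 cases (56.4%), and those of 1000 or less in 1.20%. Of 68180 windows spaced along the main arms 0.697% did. The core was picked from 6 of the 13 windows, so the share of 69.2% partly restates that choice. Without those 6 windows, 4 of the remaining 7 (57.1%) had 3 or more cores.

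The step of 11 bp was also picked from the printed windows. Of 22 pairs of neighbouring cores on the same strand at the 13 strongest summits, 15 (68.2%) started exactly 11 bp apart. Without the 6 printed windows it was 4 of 9 pairs (44.4%). Of the 10 pairs at the strongest summits of other domains 0 did, and of the 48 at their remaining summits 2 did (4.17%). Outside domains it was 95 of 194 pairs at peaks over 1000 (49.0%) and 6.56% of pairs at weaker peaks, against 2.23% of pairs in the windows along the arms. The strongest summits of CG1888 and Tlk had 0 cores. With the limit set at 500 in place of 1000, the same 9 were of 25 domains (36%), so the share rests on the limit chosen.

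**Figure D5:**
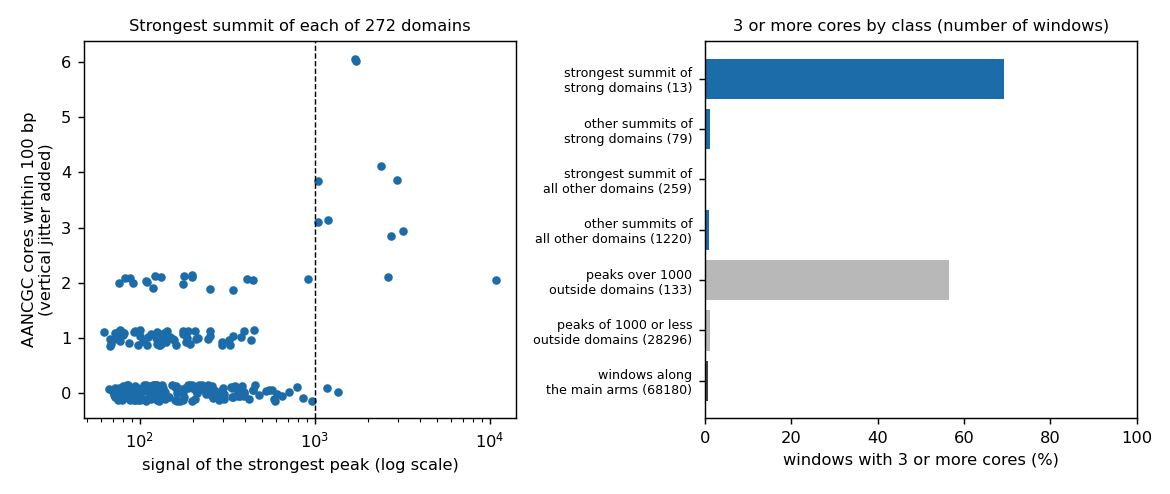
Left, number of AANCGC cores within 100 bp of the strongest summit against its signal (log scale) for each of the 272 domains, with a dashed line at 1000; left of the line no domain has more than 2 cores. Right, percent of windows with 3 or more cores by class, strong domains being the 13 with a peak over 1000; the strongest summits of strong domains (69.2%) and peaks over 1000 outside domains (56.4%) are the highest bars, and the first includes the 6 windows from which the core was picked (57.1% without them).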

How the data were processed

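ChIP-seq of GFP-tagged hng2 was made in 2 replicates of embryos. The authors deposited narrowPeak lists of relaxed peaks per replicate and for both pooled, called against a control alignment, and an optimal list made from them by IDR, per the files' descriptions. Each dm6 relaxed list holds exactly 30000 peaks. The deposited signal column is the caller's value per peak and is not scaled between lists. The deposited −log10 q-value column was not needed. The deposited offset of the summit from the peak start, in bp, gave the summits. The peak caller, aligner and IDR settings remain not given in the sources used here. Depth is unknown without counts, and intervals cover counting error over summits, domains or genes.

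Summits were chained at 1000 bp, and chains of 5 or more were kept, with Python 3.11.15, pandas 2.3.3, numpy 2.4.6 and scipy 1.17.1. Chaining was tested on simulated data. Each summit received the first fitting of 7 classes, from Ensembl release 115. The order was promoter (within 500 bp of a TSS), 5' UTR, coding exon, 3' UTR, other exons, introns and intergenic sequence. Starts of protein-coding and non-coding genes both counted as TSSs, and starts of transposable elements were left out. A gene counted as overlapped when its body met the span. Sequence came from the Release 6 genome of RefSeq (dm6). Coordinates are 1-based. Shares carry 95% exact (Clopper-Pearson) intervals, and a count of 0 allows up to 3 counts. No tests were made, since the summits chose the domains and neighbours are not independent.

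The members, the 19 gene lists and 10 motifs were chosen with earlier results of these data known; the AANCGC core and the limit of 1000 were chosen after the sequences and values were seen. Named domains were the 10 with most summits, the 10 with the highest sum, the 10 with the highest peak and the 5 longest, which are 19 domains, the surroundings of hng1 to hng3, and up to 4 members of each list with most domain summits; ties were broken by summed signal. CG42342, Drak, cv-c, nompC, aqz, the tun and Poxn domain and list members beyond 4 are named for their counts or position, outside this rule. Genes left out of a list, such as nAChRalpha3, blow, beat-Ib, kis and tna, are named as examples only. Alternatives were other distances, minimum numbers, merged summits, the 15000 strongest peaks, each replicate's own list, dm3, and other limits of promoter, span and gene overlap.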

Additional observations from a re-analysis of the deposited data

How the results depend on the processing

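The number of domains depends strongly on the rule. It was 5 with a distance of 500 bp, 1139 with 2000 bp, 632 with 4 or more summits, 51 with 7 or more, 39 with the 15000 strongest peaks, 255 with summits under 200 bp apart merged, and between 170 and 383 in a single replicate's list, against 272. On dm3, where the pooled relaxed list holds 17974 peaks, it was 84. The genes overlapped were 6, 1341, 523, 50 and 39 in the first 5 of these settings, 144 when a TSS had to lie inside, and 142 to 386 with one replicate left out, against 236. The median span was 1281, 5287, 2034 and 4035 bp in the first 4 settings and 3059 bp between peak edges, against 2660 bp, and 2619 to 2724.5 bp with one replicate left out. The promoter share was 46.15% with 500 bp, over 5 domains, 15.34% and 35.84% with promoters of 250 and 1000 bp, and 19.82% to 28.98% with one replicate left out, against 23.11%. Domains with an optimal peak were 40% with 500 bp, 61.9% with 2000 bp, 54.9% with 7 or more summits and 71.79% with the 15000 strongest peaks, and 48.04% to 51.18% with one replicate left out, against 48.9%. The core share of 69.2% was the same in windows of 50 bp to either side, and 57.1% without the printed windows; both settings were chosen after seeing the data, like the limit of 500 given above. No paired analysis was possible because the samples form 1 group. The cause of these changes was not tested beyond the smaller or larger sets of summits that the settings leave.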
